A study of Mus musculus with 16 samples.

Results

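The 4 arrays described here, of 16 in the series, measured CD4+ T cells cultured with IL-6 and TGFb, 2 from STAT3-deficient and 2 from wild-type (WT) cells. They were chosen by the sample titles alone, with no use of a measured value. Cells of both genotypes carried floxed Stat3, and the STAT3-deficient ones also had a CD4 Cre transgene, which drives the deletion in T cells. All 4 cultures began with sorted naive cells (CD44- CD62L+) that were activated through CD3 and CD28 with antibodies, and RNA was taken after 3 days. The labels give 10 ug/ml for IL-6 and 2.5 ug/ml for TGFb, in that unit. The remaining 12 arrays came from the same genotypes in medium, in IL-6 alone and in TGFb alone, and are described only where they show how the response to both cytokines differs, although all 16 arrays share 1 estimate of the spread behind each SE and p (the genes called numbered 353 with only the 4 arrays, against 155 with all 16). The labels do not say what the replicates 1 and 2 stand for, and p-values cover only the spread between these samples.

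IL-6 binds a receptor that signals through the shared subunit gp130 and JAK kinases, which phosphorylate STAT3. Phosphorylated STAT3 forms dimers that enter the nucleus and bind DNA, and Socs3, a known target gene, encodes an inhibitor that closes the loop. TGFb signals through SMAD proteins. In naive CD4+ T cells TGFb alone favours regulatory T cells, marked by Foxp3, whereas TGFb with IL-6 favours Th17 cells, which make IL-17A and IL-21. The comparison of the genotypes asks which part of the expression pattern under both cytokines depends on STAT3 in the T cell.

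Levels are given as log2 of the deposited intensity, and pairs of values run from replicate 1 to replicate 2. Stat3 itself was read first. Its brightest probe set read 9.01 and 9.56 on the STAT3-deficient arrays and 11.82 and 12.18 on the WT arrays, and the genotypes did not overlap (log2 change -2.72, SE 0.58, adjusted p = 0.05002, and adjusted p = 0.0052 with the replicate number as a block). The same sign was found for all 3 other Stat3 probe sets, at -2.67, -0.64 and -0.4. In the one at -0.64 the genotypes overlapped (6.75 and 7.79 without STAT3, 7.64 and 8.19 in WT cells). The places of the Stat3 probe sets relative to the deletion are not known here, and a probe set outside it would check nothing. T cell markers were plain on the 4 arrays, where 7 of 7 measured reached log2 8, with a median of 12.04. Markers of myeloid cells, mast cells, CD8 T cells and gamma delta T cells did not reach log2 8 on any of the 4. Of dendritic cell markers 2 of 8 did (H2-Ab1, up to 10.42, and Cd74), of erythroid and platelet markers 1 of 7 (Itga2b, up to 8.25) and of stromal markers 2 of 7 (Epcam, up to 8.29, and Pecam1). For these 3 lists and for mast cells the summed intensities of the genotypes overlapped. Without overlap, sums were higher without STAT3 for T cells (30737 to 31816, against 26968 to 30038 in WT cells). The same held for myeloid cells (722 to 782 against 666 to 704) and CD8 T cells (233 to 243 against 197 to 232). It also held for gamma delta T cells (187 to 211 against 148 to 158). The part of these cells in the results was not tested. Replicate 1 arrays read the female transcript Xist at 11.91 to 13.21 and the Y-linked Eif2s3y at 3.81 to 4.52, against 6.64 to 7.6 and 9.84 to 10.98 on replicate 2 arrays. The replicates of each group were thus female and male material, from different animals. The difference between 5' and 3' Actb control probe sets, a sign of RNA quality, was -0.25 and -1.22 without STAT3 and -0.21 and -0.88 with it, so it followed the replicate number too. Both STAT3-deficient TGFb arrays, which are outside the comparison, need naming. Replicate 2 read Stat3 at 10.46, above WT medium replicate 1 (10.22). Replicate 1 read Il17a at 9.55 although the other 7 STAT3-deficient arrays read 6.04 to 6.51. Results were therefore also computed with the latter array exchanged with STAT3-deficient IL-6 with TGFb replicate 1.

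Without STAT3 more genes were lower than higher. Of 13007 genes tested, 128 fell (0.984%) and 27 rose (0.208%), 155 together (1.19%), at an adjusted p under 0.05 in limma's moderated test. An unadjusted p under 0.05 in that test was found for 1314 of the 13007. The falls reached 154-fold (Il21) and the rises 46.9-fold (Nkg7), and 148 of the 155 were 2-fold or larger. At least 4-fold were 54 of the falls and 11 of the rises. All 155 had the same sign within both replicate numbers and groups that did not overlap, a property shared by 49% of all genes. With the replicate number as a block 256 genes fell (1.97%) and 66 rose (0.507%), and these include all 155. In 35 of the genes that fell the STAT3-deficient mean lay under log2 6, and in 2 of those that rose the WT mean did, so that the size of these changes depends on the array's background. The count was 35 without STAT3-deficient replicate 1, 28 without its replicate 2, 37 without WT replicate 1 and 32 without WT replicate 2. Of 78 genes that passed and are named by a fixed rule, 20 passed whichever of the 4 arrays was left out. These were Il21, Rora, Tmem176a, Tmem176b, Gpr15, Klre1, Pdpn, Lgr4, Fnbp1l, Cwh43, B4galnt4, Tha1, Prg4, Sema6d, Ube2q2 and Gm17767 among the falls and Tnfsf11, Litaf, Adgre5 and St14 among the rises. Another 43 passed in none of these 4 fits and 15 in some. With the 2 arrays exchanged, 52 of the 78 passed.

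**Figure D1:**
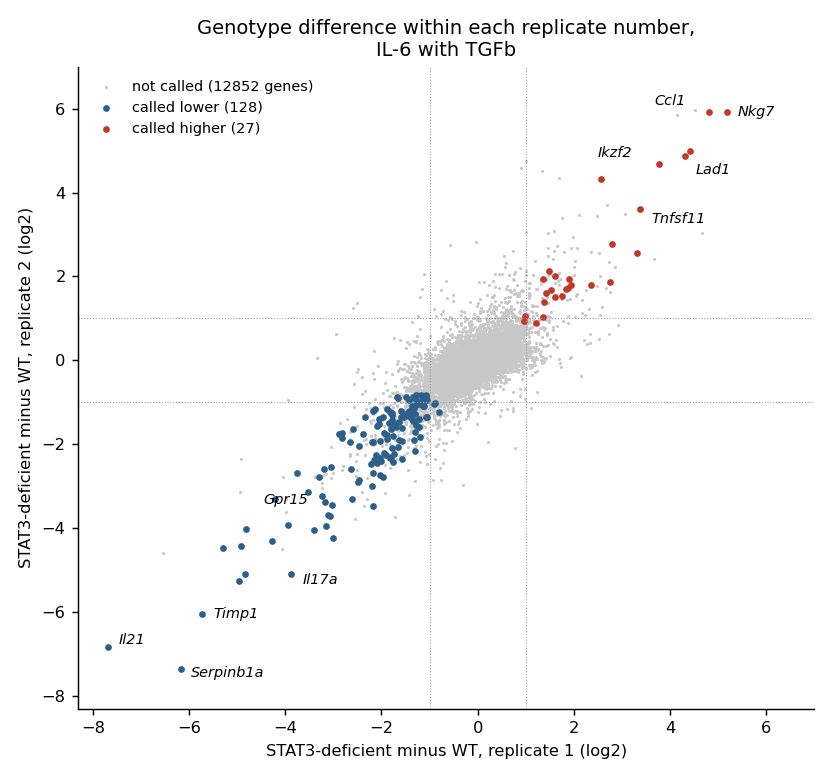
Difference between STAT3-deficient and WT cells under IL-6 with TGFb (log2), replicate 1 on the horizontal and replicate 2 on the vertical axis, 1 point per gene, with dotted lines at a 2-fold difference. The 128 genes that fell lie at the lower left, down to Il21 and Serpinb1a, and the 27 that rose at the upper right, up to Nkg7 and Ccl1.

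Promoter sequence is shown for selected genes. STAT dimers are known to bind the letters TTCNNNGAA, which read the same on both strands. These letters were searched in RefSeq promoter windows of GRCm38.p6 that run from 250 bases before to 50 bases after each gene's start. They were present for 10 of 105 genes that fell and have a window (9.52%), for 3 of 22 that rose (13.6%) and for 860 of 10505 of all genes tested (8.19%). The sequences below are 100 bases each, written 5' to 3' on the gene's strand, with a match in capitals. Il21 and Il17a, the cytokines that fell, have no match in this stretch or in the rest of the window before the start. Sbno2, which fell, and Nkg7, which rose, were taken from the 10 and 3 genes with a match, and Socs3 is the textbook STAT3 target. Sbno2 has 3 windows, of which the first with a match is shown, and the other genes shown have 1 each.
Il21, chr3:37232637-37232736, minus strand: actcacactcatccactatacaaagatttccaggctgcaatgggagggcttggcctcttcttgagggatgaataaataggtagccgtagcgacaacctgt
Il17a, chr1:20730805-20730904, plus strand: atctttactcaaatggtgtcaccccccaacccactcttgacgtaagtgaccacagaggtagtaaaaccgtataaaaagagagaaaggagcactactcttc
Sbno2, chr10:80102703-80102802, minus strand: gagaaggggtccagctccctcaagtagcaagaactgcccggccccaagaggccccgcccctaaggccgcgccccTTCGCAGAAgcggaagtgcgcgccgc
Socs3, chr11:117969467-117969566, minus strand: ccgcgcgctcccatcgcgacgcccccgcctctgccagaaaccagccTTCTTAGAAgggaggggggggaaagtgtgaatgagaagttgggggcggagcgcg
Nkg7, chr7:43436888-43436987, plus strand: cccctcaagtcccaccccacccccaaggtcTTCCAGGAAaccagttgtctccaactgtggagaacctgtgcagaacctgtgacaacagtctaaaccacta
The match begins 26 bases before the start in Sbno2, 154 in Socs3 and 220 in Nkg7. A match is a description of these letters and does not show that STAT3 binds there.

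Among cytokines, Il21 and Il17a fell and Penk rose. Il21, a growth factor of Th17 and follicular helper T cells, read 4.7 and 4.7 on the STAT3-deficient arrays and 12.39 and 11.54 on the WT arrays. Both STAT3-deficient arrays lay under log2 6 and both WT arrays far above it, a 154-fold fall (log2 change -7.26, SE 0.53, adjusted p = 0.00027). Il17a read 6.29 and 6.51 on the STAT3-deficient arrays and 10.16 and 11.59 on the WT arrays. Both STAT3-deficient readings lay near log2 6, and the WT readings were 22.2-fold higher on average (log2 change -4.48, SE 0.81, adjusted p = 0.0234). Penk, the precursor of the opioid peptide enkephalin, went the other way, with 9.77 and 10.49 on the STAT3-deficient arrays and 7.2 and 6.17 on the WT arrays (log2 change 3.45, SE 0.71, adjusted p = 0.0421). Il10, an anti-inflammatory cytokine, read 4.7 and 4.81 on the STAT3-deficient arrays and 9.65 and 7.95 on the WT arrays, and this difference did not pass (adjusted p = 0.0783, and 0.0579 with the block). Ifng, the Th1 cytokine, read 9.83 and 10.97 on the STAT3-deficient arrays and 5.7 and 5.13 on the WT arrays, without overlap and equally without passing (adjusted p = 0.326). Inhba, a subunit of activin, and Tnf differed by -1.39 and 1.15 and passed with the block alone (adjusted p = 0.0392 and 0.0292, against 0.0675 and 0.0762 without it). In all, 2 of 28 cytokine genes fell and 1 rose. Il17f, Il22 and Il23r were not analysed here. Leaving out any 1 of the 4 arrays ended the calls of Il17a and Penk (adjusted p from 0.0839 to 0.352), and the exchange of arrays did so too (Il17a -2.84, adjusted p = 0.133; Penk 2.54, adjusted p = 0.311).

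**Figure D2:**
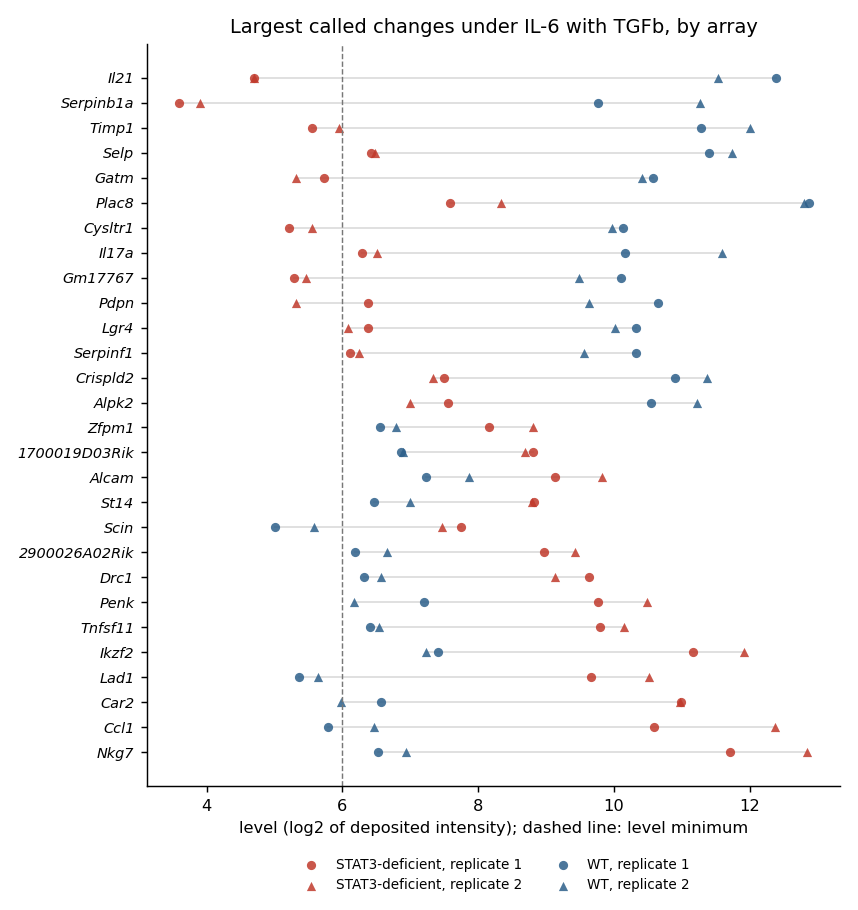
Level on each of the 4 arrays (log2 of the deposited intensity) for the 14 genes with the largest falls and the 14 with the largest rises, red for STAT3-deficient and blue for WT, circles for replicate 1 and triangles for replicate 2. No gene shown has overlapping genotypes, and the STAT3-deficient values of Il21, Serpinb1a, Timp1, Gatm, Cysltr1 and Gm17767 lie under the dashed line at log2 6.

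Receptors and kinases of cytokine signalling were lower where they passed. Il17ra, the receptor for IL-17A, read 10.91 and 10.7 on the STAT3-deficient arrays and 12.21 and 12.14 on the WT arrays (log2 change -1.37, SE 0.27, adjusted p = 0.037). Acvr2a, a receptor for activins, read 8.24 and 8.68 on the STAT3-deficient arrays and 9.97 and 10.17 on the WT arrays (log2 change -1.61, SE 0.3, adjusted p = 0.0262). Jak3, the kinase that serves receptors with the common gamma chain, among them that for IL-21, read 9.29 and 9 on the STAT3-deficient arrays and 10.35 and 10.34 on the WT arrays (log2 change -1.2, SE 0.21, adjusted p = 0.0179). These were 2 of 29 cytokine receptors and 1 of 17 genes of the IL-6 receptor, JAK and STAT chain, all 3 falling. In the opposite direction limma's test called 0 members of these lists with or without the block, and at an unadjusted p under 0.05 it found 0 receptors and 1 gene of the chain. Il1r1, Il4ra and Ifngr2, which are the receptors for IL-1, IL-4 and interferon gamma or part of them, differed by -1.89, -2.18 and -1.69 and passed only with the block (adjusted p = 0.0124, 0.0449 and 0.00771, against 0.0871, 0.117 and 0.239). The IL-6 receptor itself did not pass. Il6ra read 7.43 and 7.4 without STAT3 and 7.97 and 8.28 in WT cells, and Il6st, which encodes gp130, read 8.27 and 8.39 without STAT3 and 9.43 and 9.98 in WT cells (adjusted p = 0.746 and 0.214). Stat4 and Stat5a differed by 0.22 and -0.19 with overlapping genotypes (adjusted p = 0.97 and 0.923). The median difference was -0.51 over the 29 receptors and -0.23 over the chain, against 0.01 over all genes. Il17ra, Acvr2a and Jak3 did not pass whichever of the 4 arrays was left out (adjusted p from 0.0796 to 0.272).

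Of 26 classical STAT3 targets and feedback genes 1 passed, Sbno2. Sbno2, a transcriptional regulator induced downstream of IL-10 and STAT3, read 7.46 and 7.92 on the STAT3-deficient arrays and 9.4 and 9.66 on the WT arrays (log2 change -1.84, SE 0.31, adjusted p = 0.0155). Arid5a, which is not on that list and encodes an RNA-binding protein that stabilises cytokine transcripts, read 9.39 and 9.57 on the STAT3-deficient arrays and 12.04 and 11.52 on the WT arrays (log2 change -2.3, SE 0.41, adjusted p = 0.0209). Socs3 read 8.63 and 9.21 on the STAT3-deficient arrays and 12.61 and 12.5 on the WT arrays, a gap without overlap of -3.98 in replicate 1 and -3.29 in replicate 2. It passed with the block (adjusted p = 0.0269) and not without it (adjusted p = 0.184); its levels in medium, given further on, differ widely between replicate numbers. Bcl3, a cofactor of NF-kB, and Fosl2, a member of the AP-1 family, behaved in the same way. Bcl3 read 7.76 and 8.4 without STAT3 and 9.91 and 10.74 in WT cells (adjusted p = 0.00495 with the block and 0.271 without). Fosl2 read 7.2 and 7.88 without STAT3 and 10.58 and 10.66 in WT cells (adjusted p = 0.0124 with the block and 0.11 without). Over the 26 genes of the list of STAT3 feedback and classical targets, 1 fell in the fit without the block and 5 with it. Of these 26, 10 were at least 2-fold lower within both replicate numbers, which held for 2.68% of all genes, and 1 was at least 2-fold higher (0.961% of all genes). The median was -0.96. Batf, an AP-1 factor needed for Th17 cells, read 8.66 and 8.67 without STAT3 and 10.6 and 10.49 in WT cells and did not pass (adjusted p = 0.118). Malt1, a protease of antigen receptor signalling, differed by -2 and passed with the block (adjusted p = 0.012, against 0.131). Of 29 AP-1 and NF-kB factors limma's test called 0, the block 2 (Fosl2 and Bcl3, both lower), and an unadjusted p under 0.05 was found for 6, all lower. Sbno2 and Arid5a did not pass whichever of the 4 arrays was left out (adjusted p from 0.0714 to 0.212).

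Of 50 lineage transcription factors 2 fell and 1 rose. Rora, a nuclear receptor of Th17 differentiation, read 8.29 and 8.47 on the STAT3-deficient arrays and 11.58 and 11.25 on the WT arrays (log2 change -3.04, SE 0.37, adjusted p = 0.00268), and 7 of its 8 other probe sets had the same sign. Rora lost its call with the arrays exchanged (log2 change -2.01, adjusted p = 0.134). Etv6, an ETS family repressor, read 8.28 and 8.8 on the STAT3-deficient arrays and 10.1 and 10.02 on the WT arrays (log2 change -1.52, SE 0.32, adjusted p = 0.0497). Ikzf2, which encodes Helios, a factor of regulatory T cells, read 11.17 and 11.91 on the STAT3-deficient arrays and 7.4 and 7.23 on the WT arrays, an 18.7-fold rise (log2 change 4.23, SE 0.62, adjusted p = 0.00818). Zfpm1, which encodes FOG-1, a cofactor of GATA factors outside that list, read 8.16 and 8.8 on the STAT3-deficient arrays and 6.55 and 6.78 on the WT arrays (log2 change 1.81, SE 0.33, adjusted p = 0.0234). Factors that define T helper lineages did not pass. Foxp3 read 7.35 and 8.99 without STAT3 and 4.81 and 7.9 in WT cells, so that the replicates of WT cells lay further apart than the group means (adjusted p = 0.759). Tbx21, which encodes the Th1 factor T-bet, read 9.41 and 10.11 without STAT3 and 7.95 and 7.08 in WT cells (adjusted p = 0.705). Gata3, the Th2 factor, read 7.82 and 8.97 without STAT3 and 7.16 and 6.93 in WT cells, and Bcl6, the follicular helper factor, read 7.53 and 8.02 without STAT3 and 7.85 and 8.8 in WT cells (adjusted p = 0.827 and 0.848). Maf and Ahr, which support IL-21 and IL-22 production, were lower without overlap, at -1.81 and -2.45, but did not pass (adjusted p = 0.128 and 0.116). Prdm1, which encodes Blimp-1, lay under log2 6 on all 4 arrays. Nr4a3, a nuclear receptor induced by antigen receptor signals, and Plagl1 differed by 2.19 and 1.66 and passed with the block only (adjusted p = 0.0293 and 0.0356, against 0.0661 and 0.0522). Etv6 and Zfpm1 did not pass whichever of the 4 arrays was left out, and Ikzf2 passed in 1 of these 4 fits (adjusted p from 0.0493 to 0.388); Ikzf2 and Etv6 also did not pass with the arrays exchanged (2.91 and -1.63, adjusted p = 0.166 and 0.0527).

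The list of Th17 genes held 27 tested members, of which 6 fell and limma's test called 0 in the other direction (0 also with the block and at an unadjusted p under 0.05). Besides Il21, Il17a and Rora these were Tmem176a and Tmem176b, neighbouring genes of membrane proteins found in Th17 cells, and Ltb4r1. Tmem176a read 7.07 and 6.67 on the STAT3-deficient arrays and 9.23 and 9.05 on the WT arrays and Tmem176b read 6.98 and 7.35 without STAT3 and 9.61 and 9.94 in WT cells (log2 changes -2.27 and -2.61, both with adjusted p = 0.00221). The Th17 list had a median of -1.21, at -1.35 in replicate 1 and -1.13 in replicate 2. Of its 27 members 13 were at least 2-fold lower in both, which held for 2.68% of all genes, and 0.984% of all genes fell. The list was drawn up with earlier results of these arrays known, so this is a description and no independent evidence of its direction.

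Receptors that guide migration or sense lipids changed in both directions. Gpr15, which directs T cells to the large intestine, read 6.73 and 6.13 on the STAT3-deficient arrays and 9.84 and 9.8 on the WT arrays, a fall with little spread in either group (log2 change -3.39, SE 0.29, adjusted p = 0.00089). Cysltr1, a receptor for cysteinyl leukotrienes, read 5.21 and 5.55 on the STAT3-deficient arrays and 10.13 and 9.98 on the WT arrays (log2 change -4.67, SE 0.96, adjusted p = 0.0419). Ltb4r1, a receptor for leukotriene B4, read 5.91 and 5.55 on the STAT3-deficient arrays and 7.72 and 7.88 on the WT arrays (log2 change -2.07, SE 0.38, adjusted p = 0.0234). Lgr4, a receptor for R-spondins, read 6.38 and 6.09 on the STAT3-deficient arrays and 10.32 and 10.01 on the WT arrays (log2 change -3.93, SE 0.37, adjusted p = 0.00119), although its 1 other, dimmer probe set differed by 0.12. Adgra3, an adhesion-type G protein-coupled receptor, read 4.58 and 4.7 without STAT3 and 6.75 and 8.16 in WT cells (log2 change -2.82, SE 0.37, adjusted p = 0.00486), but its 2 other probe sets, both under log2 6, differed by 0.16 and 0.04. Adgre5, which encodes the adhesion receptor CD97, rose from WT values of 8.51 and 8.29 to 9.99 and 10.42 without STAT3 (log2 change 1.8, SE 0.2, adjusted p = 0.00191). Ffar4, a receptor for long-chain fatty acids, also rose, with 7.39 and 7.6 on the STAT3-deficient arrays and 6.02 and 6.21 on the WT arrays (log2 change 1.38, SE 0.23, adjusted p = 0.0171). In the list of 26 homing, lipid and other G protein-coupled receptors 3 fell and 1 rose, with a median of -0.57. S1pr1, which lets T cells leave lymphoid organs, and Gpr34 differed by -1.64 and 2.34 and passed with the block alone (adjusted p = 0.0425 and 0.0414, against 0.391 and 0.219). Cysltr1, Ltb4r1 and Ffar4 did not pass whichever of the 4 arrays was left out, and Adgra3 passed in 2 of the 4 fits (adjusted p from 0.00338 to 0.278). The exchange of arrays also ended the call of Cysltr1 (-4.55, adjusted p = 0.0679). Cysltr1 and Adgra3 lay under log2 6 without STAT3, as did Ltb4r1.

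Among surface adhesion molecules Selp, Pdpn and Emb fell and Alcam rose. Selp, which encodes P-selectin, read 6.43 and 6.48 on the STAT3-deficient arrays and 11.4 and 11.74 on the WT arrays, a 34.7-fold fall (log2 change -5.12, SE 0.68, adjusted p = 0.00492). Pdpn, the mucin-type glycoprotein podoplanin, read 6.38 and 5.32 on the STAT3-deficient arrays and 10.65 and 9.63 on the WT arrays (log2 change -4.29, SE 0.5, adjusted p = 0.00221). Emb, which encodes embigin, a chaperone of monocarboxylate transporters, read 10.38 and 10.04 on the STAT3-deficient arrays and 12.55 and 12.72 on the WT arrays (log2 change -2.42, SE 0.38, adjusted p = 0.0119). Alcam, the ligand of CD6, rose, with 9.13 and 9.82 on the STAT3-deficient arrays and 7.23 and 7.87 on the WT arrays (log2 change 1.93, SE 0.35, adjusted p = 0.0242). These 4 were the calls among 36 adhesion genes, whose median was 0.02. Sema6d, a semaphorin outside the list, read 7.55 and 7.87 on the STAT3-deficient arrays and 9.49 and 10.06 on the WT arrays (log2 change -2.07, SE 0.25, adjusted p = 0.00236), and of its 3 other probe sets 1 had a difference above 0. Sema4f differed by -2.55 and passed only with the block (adjusted p = 0.0278, against 0.0902). Among 27 costimulatory and inhibitory receptors Icos and Cd86 fell. Icos, which sustains follicular helper and Th17 cells, read 11.13 and 11.33 without STAT3 and 12.04 and 12.36 in WT cells (log2 change -0.97, SE 0.2, adjusted p = 0.0391). Cd86, a ligand of CD28, read 5.43 and 5.58 without STAT3 and 7.17 and 7.83 in WT cells (log2 change -1.99, SE 0.3, adjusted p = 0.00891). Cd274, which encodes PD-L1, and Cd96 differed by 1.22 and 2.18 and passed with the block only (adjusted p = 0.023 and 0.0278, against 0.0891 and 0.101). Emb, Alcam and Icos did not pass whichever of the 4 arrays was left out, and Selp and Cd86 passed in 1 of the 4 fits each (adjusted p from 0.025 to 0.365), and the exchange of arrays ended that of Icos (-0.77, adjusted p = 0.133).

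Protease inhibitors and matrix proteins made up some of the largest falls. Serpinb1a, an intracellular inhibitor of neutrophil serine proteases, read 3.58 and 3.91 on the STAT3-deficient arrays and 9.76 and 11.27 on the WT arrays, a 109-fold fall (log2 change -6.77, SE 0.99, adjusted p = 0.00818). Timp1, the inhibitor of metalloproteinases, read 5.55 and 5.95 on the STAT3-deficient arrays and 11.28 and 12 on the WT arrays, a 59.1-fold fall (log2 change -5.88, SE 0.83, adjusted p = 0.00691). In both genes every WT array was bright and every STAT3-deficient array under log2 6. Serpinf1, which encodes pigment epithelium-derived factor, read 6.11 and 6.25 on the STAT3-deficient arrays and 10.32 and 9.56 on the WT arrays (log2 change -3.76, SE 0.67, adjusted p = 0.0221). The matrix protein gene Ecm1 read 8.54 and 8.51 on the STAT3-deficient arrays and 11.73 and 11.1 on the WT arrays (log2 change -2.89, SE 0.41, adjusted p = 0.00688), and Adamtsl4 read 4.64 and 5.32 on the STAT3-deficient arrays and 7.47 and 7.17 on the WT arrays (log2 change -2.34, SE 0.45, adjusted p = 0.0283). These were 5 of 40 genes of protease inhibitors, proteases and matrix proteins. Limma's test called 0 as higher, with the block and at an unadjusted p under 0.05 as well. With the block 9 fell, adding Ctsl, Furin, Adam19 and S100a6, which differed by -1.46, -1.46, -1 and -2.65 (adjusted p = 0.00476, 0.00581, 0.042 and 0.0216 with the block, and 0.0633, 0.237, 0.086 and 0.086 without). The list median was -0.15, and 0.13 with the arrays exchanged. Outside the list, Prg4, which encodes lubricin, read 7.38 and 7.15 on the STAT3-deficient arrays and 9.34 and 9.92 on the WT arrays (log2 change -2.37, SE 0.24, adjusted p = 0.00125). The secreted Crispld2 and the serine proteases Prss12 and Cela1 also fell, at log2 changes of -3.72, -3.24 and -2.34. St14, which encodes the membrane protease matriptase, rose, with 8.81 and 8.8 on the STAT3-deficient arrays and 6.46 and 7 on the WT arrays (log2 change 2.08, SE 0.26, adjusted p = 0.00315). Serpinb1a, Timp1 and Ecm1 passed in 1 of the 4 fits that leave out an array, Cela1 in 2, and Serpinf1, Adamtsl4, Crispld2 and Prss12 in none (adjusted p from 0.0329 to 0.264). The exchange of arrays ended the calls of Serpinf1, Adamtsl4 and Prss12 (-3.07, -2.03 and -2.37, adjusted p = 0.0694, 0.0682 and 0.159).

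In the list of cytotoxic granule and natural killer (NK) receptor genes, 2 granule genes rose and 1 receptor gene fell. Nkg7, a granule membrane protein, read 11.71 and 12.85 on the STAT3-deficient arrays and 6.52 and 6.93 on the WT arrays, a 46.9-fold rise (log2 change 5.55, SE 0.94, adjusted p = 0.0165). Gzmk, a granzyme, read 7.46 and 8.07 on the STAT3-deficient arrays and 6.11 and 6.13 on the WT arrays (log2 change 1.64, SE 0.32, adjusted p = 0.0346). In contrast Klre1, a lectin-like receptor, read 5.17 and 5.43 on the STAT3-deficient arrays and 7.55 and 7.19 on the WT arrays (log2 change -2.07, SE 0.23, adjusted p = 0.00179). Klrd1, which encodes CD94, and Klrc1, which encodes its partner NKG2A, differed by -3.08 and -2.32 and passed with the block (adjusted p = 0.0119 and 0.0202, against 0.206 and 0.16). Klrd1 read 8.82 and 9.92 without STAT3 and 12.06 and 12.85 in WT cells, without overlap. Ctla2b, a protease inhibitor of T cells, did likewise at -3.8 (adjusted p = 0.0386, against 0.233). Of the 19 genes of this list 2 rose and 1 fell, and with the block 3 rose and 4 fell. The list median was -0.07, at -0.29 in replicate 1 and 0.15 in replicate 2. The summed intensity of 7 NK cell markers was 836 to 1526 without STAT3 and 4763 to 7751 in WT cells. Klrd1 carried the difference in this sum, at 453 and 968 without STAT3 and 4279 and 7360 in WT cells. The other 6 markers summed to 383 and 558 without STAT3 and to 484 and 391 in WT cells. These 6 include Klre1, which fell, so their sum does not show that each of them was unchanged. Of the 7 markers Klrd1 and Eomes alone reached log2 8, and Ncr1, the defining NK marker, did not. The sum of 9 B cell markers was 3438 to 4362 and 1705 to 2011, and Ighm was the only one of them to reach log2 8. The part of other cell types in these results was not tested. In a culture of many cells, fewer cells with a transcript and less of it per cell cannot be told apart. Nkg7 and Gzmk did not pass whichever of the 4 arrays was left out (adjusted p from 0.0829 to 0.239), nor with the arrays exchanged (4 and 0.98, adjusted p = 0.239 and 0.6).

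Chemokine and TNF family genes that passed were higher. Ccl1, a chemokine for CCR8, read 10.59 and 12.37 on the STAT3-deficient arrays and 5.78 and 6.46 on the WT arrays (log2 change 5.36, SE 0.88, adjusted p = 0.0147). Tnfsf11, which encodes RANKL, the ligand that drives osteoclasts, read 9.79 and 10.15 on the STAT3-deficient arrays and 6.41 and 6.54 on the WT arrays (log2 change 3.49, SE 0.38, adjusted p = 0.00168). These were 1 of 21 chemokine genes and 1 of 26 TNF family genes. With the block Xcl1 and Ccl3 were added to the higher chemokine genes. Xcl1 read 11.63 and 13.34 without STAT3 and 7.11 and 7.37 in WT cells, a 38-fold difference (adjusted p = 0.0498 with the block and 0.191 without). Ccl3 read 11.07 and 11.39 without STAT3 and 8.01 and 7.89 in WT cells (adjusted p = 0.0361 and 0.156). The chemokine receptor Cxcr4 differed by -1.95 (adjusted p = 0.04 and 0.385). In the TNF family the block added the death ligands Fasl and Tnfsf10, together with Tnf, as higher and the receptor Tnfrsf25 as lower. Fasl read 6.57 and 7.79 without STAT3 and 4.46 and 4.32 in WT cells (adjusted p = 0.0115 and 0.0647). Tnfsf10, which encodes TRAIL, and Tnfrsf25 differed by 1.66 and -1.92 (adjusted p = 0.0338 and 0.0451, against 0.0716 and 0.0644). The list of 21 Th1 genes held 0 calls in limma's test without the block and 4 with it (Tnf, Fasl, Ccl3 and Xcl1, all higher), and 7 higher genes had an unadjusted p under 0.05. Its median was 1.19, the highest of the 27 lists. Of the 21, 8 were at least 2-fold higher within both replicate numbers, which held for 0.961% of all genes. The Th1 list too was drawn up with earlier results of these data known. With the arrays exchanged Tnf, Fasl, Ccl3 and Xcl1 differed by 0.76, 2.99, 0.9 and 5.11, against 1.15, 2.79, 3.28 and 5.25 before. Ifng and Tbx21 then differed by 2.26 and 0.06, against 4.99 and 2.24. Ccl1 passed in 1 of the 4 fits without an array (adjusted p from 0.0461 to 0.147) and not with the arrays exchanged (3.77, adjusted p = 0.53).

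Enzymes and structural genes moved singly. Gatm, which catalyses the first step of creatine synthesis, read 5.73 and 5.32 on the STAT3-deficient arrays and 10.57 and 10.41 on the WT arrays, a 31.2-fold fall (log2 change -4.97, SE 0.93, adjusted p = 0.0262). Tha1, a threonine aldolase, read 6.52 and 6.15 on the STAT3-deficient arrays and 8.98 and 9 on the WT arrays (log2 change -2.65, SE 0.28, adjusted p = 0.00125). Mgll, a lipase of monoacylglycerols, read 7.31 and 6.32 without STAT3 and 9.93 and 9.63 in WT cells (log2 change -2.96, SE 0.56, adjusted p = 0.0269). Phgdh, which opens serine synthesis, rose, with 12.26 and 12.41 on the STAT3-deficient arrays and 10.74 and 10.73 on the WT arrays (log2 change 1.6, SE 0.31, adjusted p = 0.0329). Car2, a carbonic anhydrase, read 10.98 and 10.98 on the STAT3-deficient arrays and 6.57 and 5.98 on the WT arrays, a 26.1-fold rise (log2 change 4.71, SE 0.75, adjusted p = 0.0131). Lpin2, a phosphatase of lipid synthesis, rose by 1.52. Of 28 enzymes of amino acid, creatine, polyamine and carbonate metabolism, 2 rose and 1 fell, and the median was 0.01. Lad1, a protein of epithelial anchoring filaments, read 9.66 and 10.52 on the STAT3-deficient arrays and 5.36 and 5.64 on the WT arrays (log2 change 4.59, SE 0.63, adjusted p = 0.006). Scin, an actin-severing protein and target of the aryl hydrocarbon receptor, read 7.75 and 7.46 without STAT3 and 5 and 5.58 in WT cells (log2 change 2.31, SE 0.42, adjusted p = 0.0234), whereas the 8 genes of that receptor's list had a median of -0.80. Plac8 read 7.58 and 8.34 without STAT3 and 12.87 and 12.81 in WT cells (log2 change -4.88, SE 0.83, adjusted p = 0.0174), Fnbp1l, a protein that bends membranes toward actin, 8.15 and 7.54 without STAT3 and 11.23 and 11.24 in WT cells (log2 change -3.39, SE 0.36, adjusted p = 0.00125), and Ube2q2, a ubiquitin-conjugating enzyme, 7.4 and 7.65 without STAT3 and 10.63 and 10.87 in WT cells (log2 change -3.23, SE 0.37, adjusted p = 0.0022). Litaf, a protein of late endosomes, rose, reading 10.7 and 10.76 on the STAT3-deficient arrays and 8.83 and 9.04 on the WT arrays (log2 change 1.8, SE 0.19, adjusted p = 0.00125). The histone chaperone Asf1a and the mismatch repair gene Pms1 had the smallest named rises, at 1.02 and 0.95. Gatm, Mgll, Phgdh, Car2, Lpin2, Scin, Plac8, Asf1a and Pms1 did not pass whichever of the 4 arrays was left out, and Lad1 passed in 1 of these fits (adjusted p from 0.0393 to 0.292). With the arrays exchanged, Car2, Scin, Phgdh, Lpin2, Asf1a and Pms1 lost their calls, at log2 changes of 2.59, 1.3, 1.3, 1.35, 0.9 and 0.8 (adjusted p = 0.549, 0.432, 0.0889, 0.0802, 0.072 and 0.104).

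The remaining named falls were Gm17767, Cwh43, Alpk2, Fam217b, Acpp, Dnah12, Neb, Atp6v0d2, Myo3b, B4galnt4, Phxr4, Morrbid and Piwil2, at log2 changes from -4.42 (Gm17767) to -2.27 (Piwil2). Dnah12 encodes an axonemal dynein, Neb the muscle protein nebulin, Atp6v0d2 a subunit of the vacuolar proton pump and Morrbid a long non-coding RNA. Cwh43 read 4.7 and 4.39 on the STAT3-deficient arrays and 8.23 and 7.52 on the WT arrays, and the WT values alone rose above log2 6 (log2 change -3.33, SE 0.35, adjusted p = 0.00125). Gm17767 read 5.29 and 5.46 on the STAT3-deficient arrays and 10.1 and 9.49 on the WT arrays with the same pattern. The remaining named rises were Drc1, 2900026A02Rik, 1700019D03Rik, Ttc27, Cnksr3, Fam111a, Hdgfl3 and Grasp, at log2 changes from 1.05 (Grasp) to 2.93 (Drc1). With the arrays exchanged, Acpp, Phxr4, Drc1, Ttc27, Cnksr3, Hdgfl3 and Grasp lost their calls (adjusted p from 0.0559 to 0.441). Smad3, a transducer of the TGFb signal, read 7.89 and 8.65 without STAT3 and 9.55 and 10.43 in WT cells; it passed only with the block (adjusted p = 0.000997, against 0.261), and its replicate 2 lay above its replicate 1 in both genotypes. Of the 35 TGFb response and regulatory T cell genes tested, Ikzf2 rose while Gpr15 and Ecm1 fell.

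Whole programmes of growth and metabolism held few or no calls. Since 1.19% of all genes were called, lists of this size would hold few at that share too. Of 53 cell cycle, 34 glycolysis and hypoxia, 30 solute carrier and 20 sterol synthesis genes limma's test called 0, with and without the block. At an unadjusted p under 0.05 these lists held 5, 3, 5 and 1 genes, against 1314 of all 13007 genes. Of 43 interferon response, 36 apoptosis and survival, 24 naive and quiescence and 28 antigen receptor signalling genes it called 0 without the block and 1 each with it, and 7, 5, 5 and 7 had an unadjusted p under 0.05. The gene added in the interferon list was Ifih1, the RNA sensor MDA5, which read 8.58 and 9.14 without STAT3 and 6.99 and 6.54 in WT cells (adjusted p = 0.0198 with the block and 0.153 without). The median was 0.40 over the cell cycle genes and 0.47 over the interferon genes, and the latter was -0.19 with the arrays exchanged. It was -0.46 over the glycolysis genes and -0.51 over the naive genes, and of the 34 glycolysis genes 5 were at least 2-fold lower within both replicate numbers. Across the 27 lists 36 of 648 members tested had passed, against 155 of all 13007 genes (1.19%). The lists were drawn up with earlier results of these data known, so a larger share among them is no independent evidence.

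**Figure D3:**
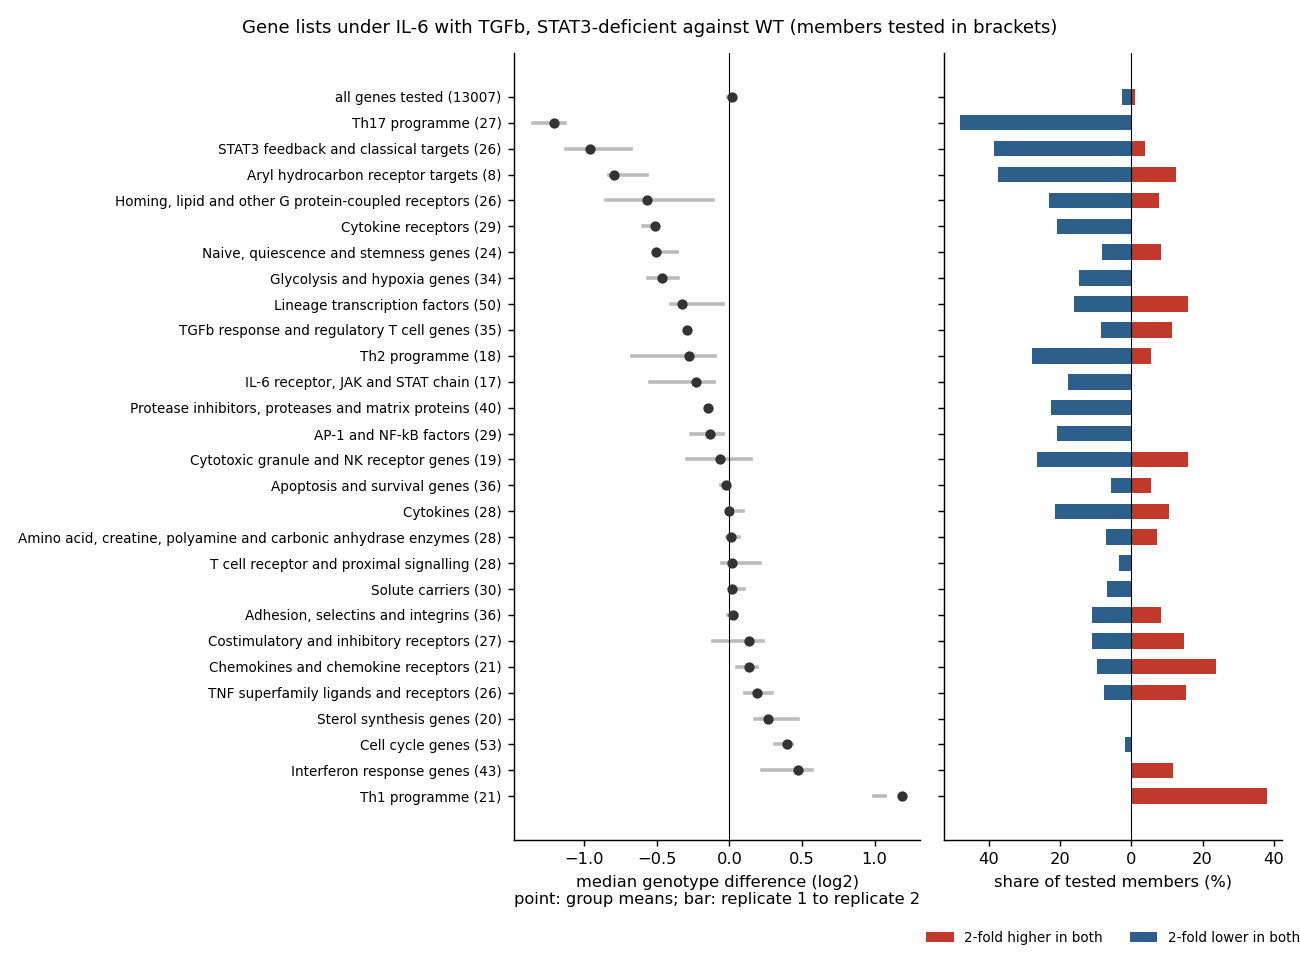
Left, median difference between STAT3-deficient and WT cells (log2) of each gene list under IL-6 with TGFb, with a bar from the median in replicate 1 to that in replicate 2. Right, share of tested members at least 2-fold higher (red) or lower (blue) within both replicate numbers, where Th17 genes and STAT3 targets extend furthest to the lower and Th1 genes furthest to the higher side.

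The genotype differences under both cytokines were set against those on the 12 other arrays. These share no array with them, but 1 fit gave each gene the same SE in every culture, so shared calls are not independent. Under IL-6 alone 355 genes fell (2.73%) and 73 rose (0.561%), whereas with only the arrays compared 20 fell and 2 rose. Of the 128 genes that fell under both cytokines, 48 also fell under IL-6 alone, which is 37.5% of the 128 and 13.5% of the 355. Of the 27 that rose, 5 also rose there, which is 18.5% of the 27 and 6.85% of the 73. The sign was shared by 115 of the 128 and 25 of the 27, with medians of -1.07 and 0.60 under IL-6 alone. Under TGFb alone and in medium limma's test called 0 genes (0%) with or without the block, and 89 and 17 genes had an unadjusted p under 0.05. Stat3 itself differed by -2.52 under TGFb alone and by -2.05 in medium and was not called. The 0 calls thus do not show that the genotypes were alike in these cultures. The 128 genes had medians of -0.04 in both of these cultures. The count under IL-6 alone itself moves with single arrays, from 27 and 102 when STAT3-deficient IL-6 replicate 1 or 2 was left out to 213 and 547 when WT IL-6 replicate 1 or 2 was.

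**Figure D4:**
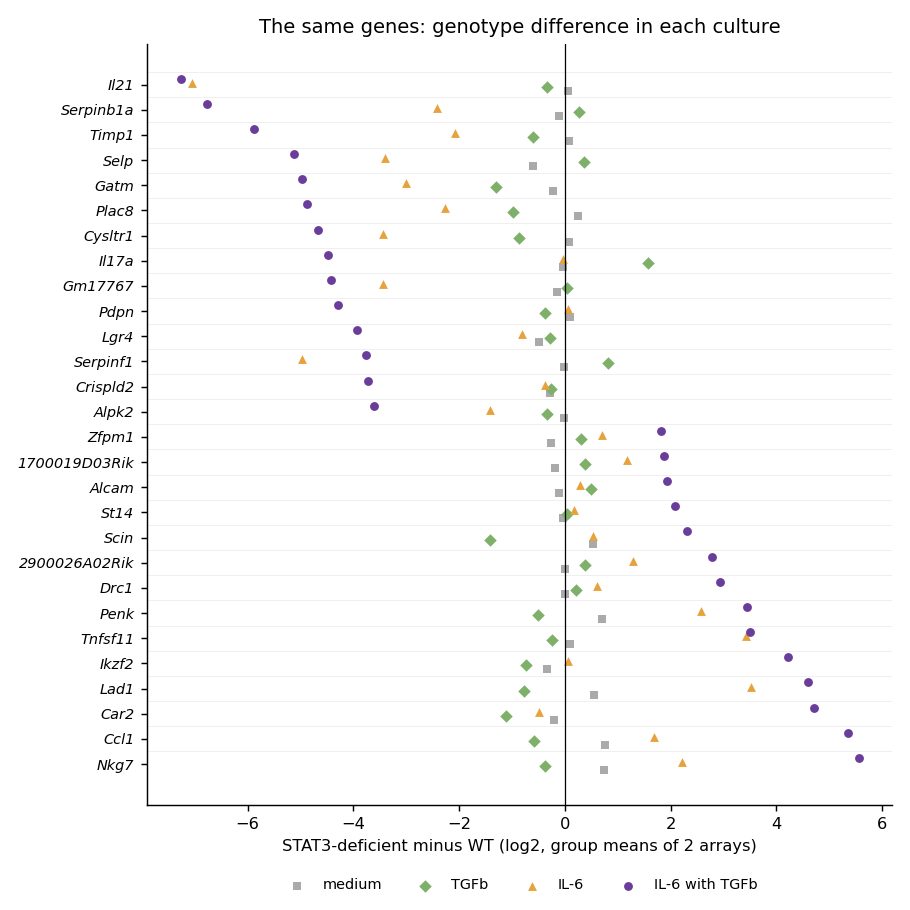
Difference between STAT3-deficient and WT group means (log2) in medium (grey squares), TGFb (green diamonds), IL-6 (orange triangles) and IL-6 with TGFb (purple circles), for the 14 largest falls and 14 largest rises under both cytokines. Il21 and Tnfsf11 differ alike under IL-6 with and without TGFb, while Il17a, Pdpn, Crispld2, Ikzf2 and Car2 lie near 0 or on the other side under IL-6 alone.

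The levels of these genes in WT cells of the other cultures differed from gene to gene. Il21 averaged 5.12 in WT cells in medium, 5.16 under TGFb and 11.97 under IL-6, and its genotype difference was -7.05 under IL-6 alone (adjusted p = 0.000371). Tha1, Ecm1 and Serpinf1 likewise fell under IL-6 alone, by -3.02, -4.17 and -4.98 (adjusted p = 0.000827, 0.00124 and 0.00807). Other genes had lower WT means in all 3 other cultures, without a test of these levels. Il17a averaged 6.18, 6.1 and 6.24 in WT cells in medium, IL-6 and TGFb, and differed by -0.04 between genotypes under IL-6 alone. Gpr15 averaged 5.08, 4.89 and 6.27, and Pdpn 5.09, 5.21 and 6.56. Cwh43, Klre1, Cd86 and Myo3b had WT means under log2 6 in all 3 other cultures. Of these 7 genes Gpr15 alone passed the test of its departure from IL-6 alone, and the others had adjusted p from 0.0956 (Klre1) to 0.624 (Il17a). Of the 128 genes that fell, 118 had a WT level under TGFb alone nearer to the STAT3-deficient than to the WT level under both cytokines, and 118 in medium, but 61 under IL-6 alone. These shares describe genes chosen by the contrast and were not tested.

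The genes that rose show the reverse, with WT cells as the low group. Tnfsf11 averaged 9.99 in WT cells in medium and 9.71 under TGFb, and 6.4 under IL-6 and 6.47 under both. Without STAT3 it averaged 10.08, 9.47, 9.82 and 9.97 in the same order, so that the low level was seen only on the 4 WT arrays that received IL-6. Lad1 followed the same order, with WT means of 9.93, 9.57, 6.31 and 5.5. Both rose under IL-6 alone as well, by 3.43 and 3.51 (adjusted p = 0.00352 and 0.0212). Ikzf2 and Car2 had WT means in another order. In WT cells Ikzf2 averaged 10.4 under TGFb and 7.16 in medium, 6.99 under IL-6 and 7.31 under both, whereas STAT3-deficient cells under both averaged 11.54. Car2 averaged 9.09, 6.68, 6.62 and 6.27 in that order and 10.98 in STAT3-deficient cells under both. Nkg7 lay at 9.33, 9.33 and 9.99 in WT cells in medium, IL-6 and TGFb, fell to 6.73 in WT cells under both and reached 12.28 without STAT3. In limma's test the departures of Ikzf2, Car2 and Nkg7 from IL-6 alone did not pass (adjusted p = 0.301 for Ikzf2 and 0.291 for Car2). Of the 27 genes, 25 had a WT level under TGFb alone nearer to the STAT3-deficient than to the WT level under both cytokines, against 19 in medium and 7 under IL-6 alone. These genes too were chosen by the contrast, for low WT levels under both cytokines, and the shares were not tested.

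**Figure D5:**
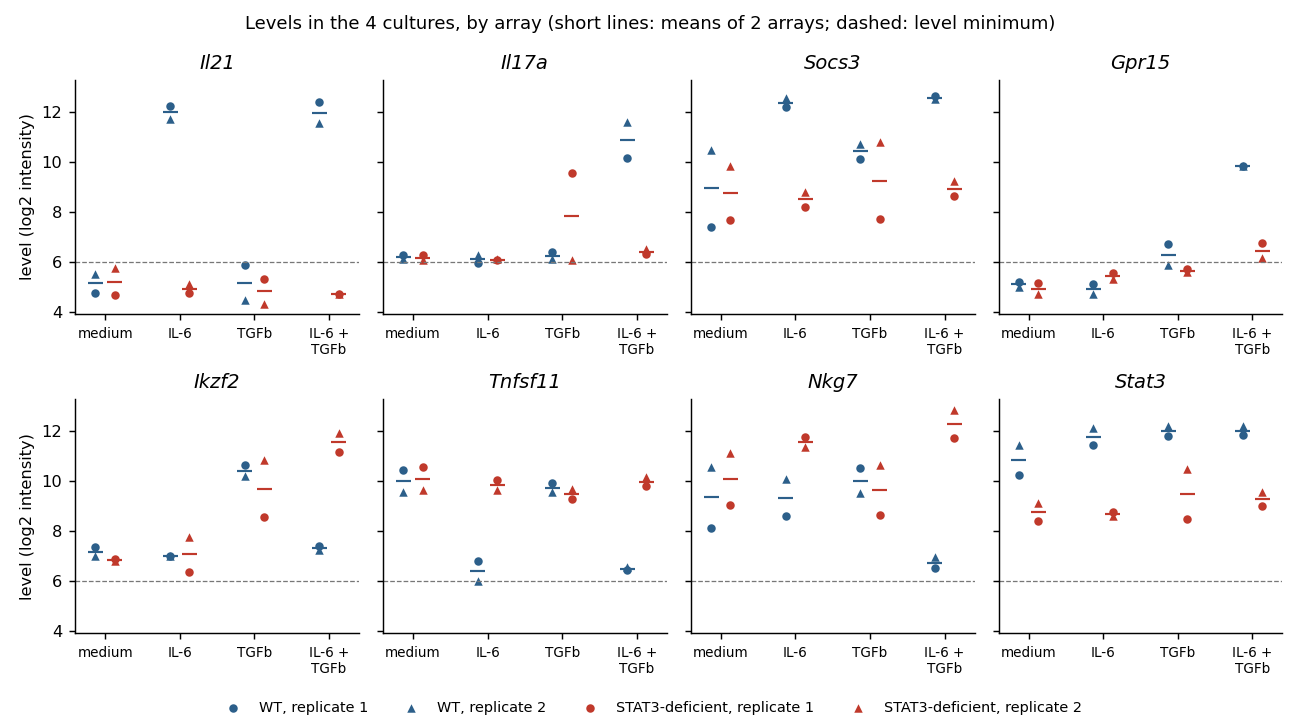
Levels of 8 genes (log2 of the deposited intensity) on all 16 arrays by culture, blue for WT and red for STAT3-deficient, circles for replicate 1, triangles for replicate 2, short lines for group means and a dashed line at log2 6. Il21 reads high on the WT arrays that received IL-6, Il17a and Gpr15 have their highest WT means under both cytokines, and the STAT3-deficient TGFb replicate 1 array stands out for Il17a.

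The difference between cultures was tested itself. The genotype difference under both cytokines departed from that under IL-6 alone for 2 genes (0.0154%). Gpr15 was one, with -3.39 against 0.51, a departure of -3.9 (SE 0.42, adjusted p = 0.0118). Hhex, a homeobox transcription factor, was the other, and it differed under IL-6 alone (-3.3) and not under both (0.06). Hhex averaged 9.09 in WT cells under IL-6 and 5.77 under both. From TGFb alone the difference departed for 10 genes (0.0769%), 8 lower and 2 higher. Il21 departed by -6.93 (adjusted p = 0.0163) and Rora by -3.5 (adjusted p = 0.0418). Tnfsf11 departed by 3.74 (adjusted p = 0.0418). The others were Gpr15, Gm17767, Lgr4, Cwh43, B4galnt4, Sema6d and Litaf. Il17a departed by -4.44 from IL-6 alone and by -6.04 from TGFb alone, and neither passed (adjusted p = 0.624 and 0.105). Socs3 departed by 0.23 and -2.47 (adjusted p = 1 and 0.948). In medium Socs3 read 7.67 and 9.84 without STAT3 and 7.39 and 10.46 with it, so its replicates lay further apart than the genotypes. These counts rest on single arrays. The count from IL-6 alone lay between 0 and 65 when 1 array was left out (65 without WT IL-6 replicate 2), and the count from TGFb alone between 0 and 130 (130 without STAT3-deficient TGFb replicate 2, the array that read Stat3 at 10.46).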

How the data were processed

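Gene expression was measured on Affymetrix mouse arrays, 1 per sample. The deposited values are intensity values on a linear scale, all whole numbers from 6 to 37243, which the authors made with RMA per the submitters' processing notes. RMA's version and settings were not given in the sources used here. Of 45101 probe sets 34945 have exactly 1 gene symbol in the platform annotation. A gene was read by its brightest probe set, log2 of the deposited intensity was taken without a pseudocount, and genes at log2 6 or more on at least 2 arrays were kept (13007 of 18193). The number of arrays limits the precision.

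All 16 arrays were fitted as 8 group means in limma 3.58.1 (R 4.3.3; lmFit, contrasts.fit, eBayes, two-sided), with 8 residual degrees of freedom and Benjamini-Hochberg adjustment over all genes, and a gene passed at an adjusted p under 0.05. The script was tested on simulated data. Replicate numbers pair the samples, since same-numbered arrays deviated together in all 28 pairs of groups (correlation across genes 0.107 to 0.863, median 0.333; 0.449 for the genotypes compared), so the fit with the number as a block stands beside results whose call it changes. The numbers come from the titles.

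Named were Stat3, all genes that rose, the 40 largest falls with groups apart, every list member that passed, up to 4 per list that passed with the block alone, a panel of 24 genes (19 tested), and departures between cultures. The comparison, the 27 lists and the panel were chosen with earlier results of these data known. Lists are described by counts and medians, with no test. Figures were drawn with matplotlib 3.10.9.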

Additional observations from a re-analysis of the deposited data

Results flagged for a closer look

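The genotype difference under IL-6 with TGFb differed from that in another culture, by limma's test of the difference itself, for 11 genes, 1 of them in both comparisons. Against IL-6 alone the departure was -3.9 for Gpr15 and 3.37 for Hhex (adjusted p = 0.0118 and 0.0118). Hhex was the only gene of the 11 that did not differ between genotypes under both cytokines.

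Against TGFb alone the departure was -6.93 for Il21, -4.46 for Gm17767, -3.65 for Lgr4, -3.5 for Rora and -3.4 for Cwh43. It was -2.76 for Gpr15, -2.68 for B4galnt4, -2.35 for Sema6d, 2.05 for Litaf and 3.74 for Tnfsf11. Adjusted p lay between 0.0163 (Il21) and 0.0418 (Gpr15). STAT3-deficient TGFb replicate 1, the array that read Il17a at 9.55, enters this comparison, and without it 3 genes passed.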

How the results depend on the processing

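The count of 155 genes rose to 322 (66 higher, 256 lower) with the replicate number as a block, to 353 with only the 4 arrays compared, to 450 with array weights and to 242 (47 higher, 195 lower) with the block and the Actb 5' minus 3' difference. It lay between 28 and 37 when 1 of the 4 arrays was left out and between 113 and 165 under the other alternatives (filters, an added constant of 32, the median over probe sets, quantile normalization, an intensity trend and the exchanged arrays). In these orders the count of list members that passed, 36, was 68, 97, 82 and 51, then 9 to 14, and the 78 named genes that passed became 22 to 28 without an array. Departures from IL-6 alone, 2 genes, became 6 with the block, 1 with the block and Actb, 5 with log2(value + 32) and 0 to 65 without an array. Departures from TGFb alone, 10 genes, became 48 with the block, 4 with only the arrays compared, 26 with array weights and 0 to 130 without an array. The 428 genes under IL-6 alone became 1490 with the block, 22 with only the arrays compared, 23 with array weights and 27 to 547 without an array. The cause of these shifts was not tested. The block ended no call among the 155. Signs turned for Hhex (-0.12 to 0.25 without an array of IL-6 with TGFb), Stat4 (-0.14 with the arrays exchanged and -0.96 to 1.40 without an array) and Stat5a (-0.72 to 0.34 without an array), none of which had passed, and for the departure of Sema6d from TGFb alone (0.15 with the median over probe sets). Of the medians of the 27 lists, 324 values under the alternatives moved by less than the spread between replicates and 81 by more, and 25 changed sign.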
